A study of Homo sapiens with 6 samples.

Results

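The genes described here are the SR proteins and hnRNPs, the main families of splicing factors, with the kinases that phosphorylate SR proteins. They were taken from the deposited gene table by symbol alone, as protein-coding rows whose symbol begins with SRSF and a digit or with HNRNP, together with TRA2A, TRA2B, CLK1 to CLK4 and SRPK1 to SRPK3. This gave 48 of 58735 rows: 12 SR proteins, 2 TRA2 proteins, 27 hnRNPs, 4 CLK kinases and 3 SRPK kinases. Of the 48 members, 41 had a mean of at least 1 FPKM (fragments per kilobase of gene model, scaled to the library's total) over the libraries and were tested among 13796 genes, namely 11 SR proteins, both TRA2 proteins, 22 hnRNPs, all 4 CLK kinases, SRPK1 and SRPK2.

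SR proteins bind exonic enhancers through RNA recognition motifs and recruit the spliceosome through a tail rich in arginine and serine, while hnRNPs coat nascent RNA and often block splice site use. CLK kinases in the nucleus and SRPK kinases mainly in the cytoplasm phosphorylate that tail and so set where SR proteins reside and when they act. Many genes of both families hold exons or retained introns that send part of their own RNA to decay or keep it in the nucleus, and splicing factors of both families are known for altered levels in colorectal cancer.

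The cells were HCT116SCs, a CD44+CD326+ population that was sorted with magnetic beads from the colorectal cancer line HCT116 and grown as spheres in serum-free medium with EGF, bFGF and B27. Both groups had the same cells, liposomal reagent and harvest time of 48 h after transfection, and differed in the siRNA: negative control siRNA in 3 libraries (NC 1 to NC 3, labelled wild type) and siRNA against PSCA in 3 libraries (siPSCA 1 to siPSCA 3, labelled PSCA knockdown). The comparison asks which transcripts differ after PSCA, a surface protein of the Ly6 family, is targeted. The labels list a trio of PSCA siRNAs without saying which was used for a library. Apart from siPSCA 1, the titles of the siPSCA libraries name the cells HCT117 and HCT118, while their other labels say HCT116. These libraries were taken as HCT116, so for them the same cells in both groups are an assumption that was not tested. Taken so, all cells derive from one line. Nothing in the labels says that replicates were separate cultures, so p-values measure the spread between these libraries, which may be technical.

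Each library held 16099716 to 17302219 reads on genes. PSCA itself was near the limit of detection, with 4, 12 and 15 reads in NC and 9, 9 and 7 reads in siPSCA (log2 fold change -0.070, adjusted p = 0.728), so its RNA does not check the labels. The sort markers CD44 and EPCAM (the gene of CD326) were at 82.6 and 107 FPKM in NC, and of 10 markers of fibroblasts, leukocytes, endothelium and hepatocytes CD3E, CD68 and LUM had no read. Their summed level was 3.79 to 6.03 FPKM in NC and 6.21 to 6.84 FPKM in siPSCA, almost all of it COL1A1, and at most 0.441 FPKM in a library without it. NC 3 stood apart from NC 1 and NC 2: it was the highest of the 6 libraries for 20 of the 41 tested members (48.8%) and for 31.2% of all tested genes. It was the lowest of the 6 for 5 members (12.2%) and for 33.4% of all tested genes. Over 13792 tested genes, all measured in these same libraries, the log2 fold change was larger at higher GC content of the gene (Spearman's rho 0.675, and 0.612 without NC 3). Over the 41 members rho was 0.274. Values with a GC and length trend removed from every library are therefore given beside those as deposited. With that trend removed, rho was 0.017 over the 13792 genes but -0.281 over the members, whose relation to GC content thus turned direction. In bulk RNA, fewer cells of a kind and less RNA per cell cannot be told apart.

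Of the 41 tested members, 9 (22.0%) were higher in siPSCA at an adjusted p under 0.05, against 26.6% of all tested genes. Another 5 (12.2%) were lower, against 24.2% of all tested genes. The 9 that rose were 7 hnRNPs (HNRNPA0, HNRNPAB, HNRNPM, HNRNPL, HNRNPUL1, HNRNPF and HNRNPH3) and the SR proteins SRSF9 and SRSF8, while SRPK2, CLK1, SRSF11, HNRNPC and SRSF10 fell. The median log2 fold change was 0.0078 over the members and 0.0091 over all tested genes. In TPM the median was -0.039 over the members and -0.034 over all tested genes, and with median-of-ratios scaling -0.0097 and -0.0058. Over the 11079 tested protein-coding genes, the biotype of all members, it was 0.040 as deposited, 0.00038 in TPM and 0.025 with median-of-ratios scaling. Of these genes 3424 were higher and 2795 lower as deposited. As deposited, the median was 0.062 over the 22 hnRNPs, -0.028 over the 11 SR proteins and -0.12 over the 6 kinases.

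**Figure D1:**
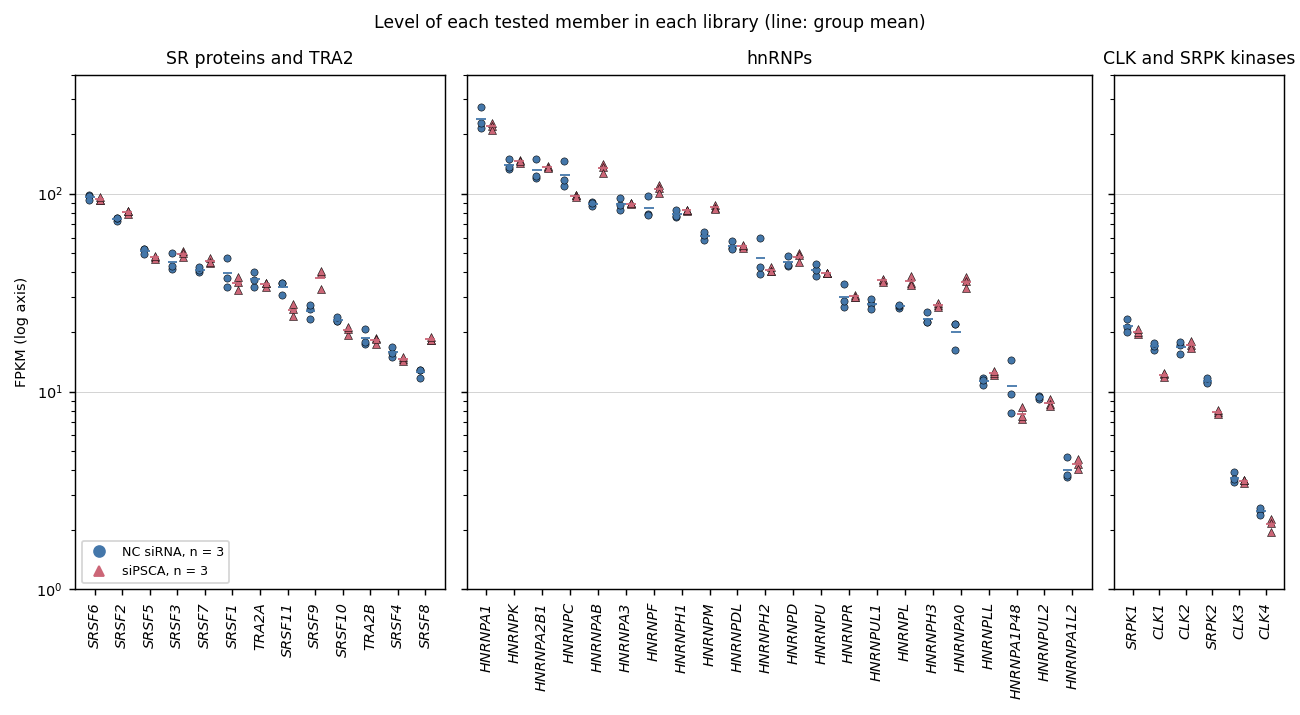
FPKM (log axis) of each of the 41 tested members in each of the 6 libraries, circles for NC and triangles for siPSCA, with a line at the group mean, ordered by NC mean within each class. HNRNPA1 is the most abundant at 239 FPKM in NC, CLK4 the least at 2.48 FPKM, and HNRNPA0, HNRNPAB, SRSF9 and SRSF8 show siPSCA libraries well above the NC libraries.

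Without NC 3, 15 members (36.6%) were higher and 6 (14.6%) lower, against 29.1% and 24.7% of all tested genes. With the GC and length trend removed, 25 members (61.0%) were higher and 4 (9.76%) lower, against 21.6% and 18.2% of all tested genes. The members had a GC content of 37.9% to 56.0% with a median of 44.1%, and the median of all tested genes was 48.9%. Under the removed trend the median log2 fold change was 0.22 over the members, 0.29 over the hnRNPs, 0.17 over the SR proteins and -0.11 over the kinases, and 0.023 over all tested genes. At an unadjusted p under 0.05 with a log2 fold change beyond 0.5, 4 members (9.76%) were higher, against 14.7% of all tested genes, and 0 (0.0%) were lower, against 10.2%. Those 4 were HNRNPA0, HNRNPAB, SRSF9 and SRSF8.

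**Figure D2:**
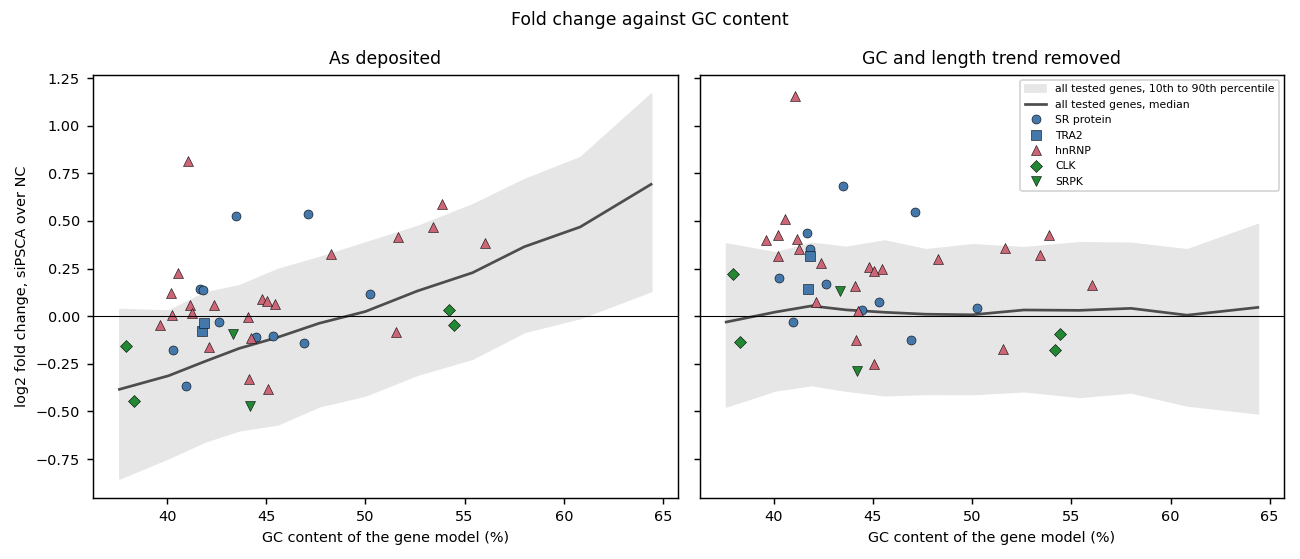
Log2 fold change (siPSCA over NC) of each tested member against the GC content of its gene model in percent, as deposited (left) and with the GC and length trend removed (right). The grey line and band give the median and the 10th to 90th percentile of all tested genes in 12 bins of GC content, and most members lie above the line at their own GC content in the left panel.

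In 12 members (29.3%) every siPSCA library was higher than every NC library, against 33.7% of all tested genes. In 7 members (17.1%) every siPSCA library was lower, against 30.8%. All 14 members past the threshold were among these 19. The other 5 were SRSF2, SRSF7 and HNRNPLL, with all siPSCA libraries higher, and SRSF5 and CLK4, with all siPSCA libraries lower. None of the 5 passed the adjusted threshold in limma, and the exact permutation test of 3 libraries against 3 cannot fall below p = 0.1.

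SRSF9 and SRSF8 rose among the SR proteins. SRSF9, the gene of SRp30c and one with a short arginine-serine tail, lies on chromosome 12 from 120461668 to 120469793 and had 26.1, 27.4 and 23.3 FPKM in NC 1, NC 2 and NC 3 and 39.6, 40.5 and 32.8 FPKM in siPSCA 1, siPSCA 2 and siPSCA 3. The lowest siPSCA library lay above the highest NC library. The means were 25.6 ± 2.12 FPKM in NC and 37.7 ± 4.21 FPKM in siPSCA (SD, n = 3 each), which gives 0.54 ± 0.10 on the log2 scale (SE, adjusted p = 0.00678). The adjusted p stayed under 0.05 in all 15 alternative fits (another pseudocount, minimum or scaling, limma-voom, the trend removed, the replicate block with and without that, and each library left out), with log2 fold changes of 0.47 to 0.63. Exons of GATC on the opposite strand cover 46.2% of the exonic bases of SRSF9, and the library kit is not stated to mark strand. GATC itself, a subunit of the mitochondrial glutamyl-tRNA amidotransferase, was at 6.16 ± 0.400 FPKM in NC and 5.59 ± 0.221 FPKM in siPSCA (adjusted p = 0.166).

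SRSF8 is a copy of SRSF2 on chromosome 11 from 95067197 to 95071224. It had 12.8, 12.9 and 11.8 FPKM in NC 1, NC 2 and NC 3 and 18.2, 18.2 and 18.8 FPKM in siPSCA 1, siPSCA 2 and siPSCA 3. All siPSCA libraries were higher, and the libraries within each group lay close together. The log2 fold change was 0.53 ± 0.054 (SE, adjusted p = 0.00124), and with the GC and length trend removed it was 0.68 (adjusted p = 0.000733). SRSF2 (SC35), the parent and a core SR protein that recognises exonic enhancers of many genes, had 73.0, 75.4 and 75.1 FPKM in NC 1, NC 2 and NC 3 and 81.8, 79.1 and 81.8 FPKM in siPSCA 1, siPSCA 2 and siPSCA 3. Here too every siPSCA library was higher, but the difference of 8.58% gave a log2 fold change of 0.12 ± 0.042 (SE, adjusted p = 0.0573), and with the GC and length trend removed it was 0.042 (adjusted p = 0.337). Without NC 3 SRSF2 passed the threshold (log2 fold change 0.12, adjusted p = 0.0249). Exons of MFSD11 cover 36.7% of SRSF2 from the opposite strand, and MFSD11 rose from 2.93 ± 0.111 to 3.60 ± 0.0943 FPKM (log2 fold change 0.23, adjusted p = 0.0208). The difference between the fold changes of SRSF8 and SRSF2 was not tested.

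The start of both coding sequences is shown to make the likeness of the copy and its parent visible. Both run from coding base 1 to 90, 5′ to 3′, as cut from the GENCODE release 29 transcripts, and capitals in SRSF8 mark the bases that differ from SRSF2. Over 657 aligned coding bases the 2 genes were 84.8% identical.
SRSF2: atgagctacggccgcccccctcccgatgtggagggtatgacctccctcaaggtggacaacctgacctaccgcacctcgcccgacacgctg
SRSF8: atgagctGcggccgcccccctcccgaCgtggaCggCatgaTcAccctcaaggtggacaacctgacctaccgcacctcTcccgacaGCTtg

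SRSF11 and SRSF10 fell. SRSF11 (p54), an SR-related protein that meets U2AF at the 3′ splice site, lies on chromosome 1 from 70205682 to 70253052 and had 35.3, 35.4 and 30.7 FPKM in NC 1, NC 2 and NC 3 and 24.1, 26.1 and 27.7 FPKM in siPSCA 1, siPSCA 2 and siPSCA 3. Every siPSCA library was lower. With 33.8 ± 2.67 FPKM in NC and 25.9 ± 1.78 FPKM in siPSCA (SD, n = 3 each), its log2 fold change was -0.37 ± 0.079 (SE, adjusted p = 0.0108), but with the GC and length trend removed it was -0.028 (adjusted p = 0.828). The GC content of SRSF11 was 41.0%, and without NC 3 the log2 fold change was -0.43 (adjusted p = 0.00225).

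SRSF10 (SRp38), which represses splicing when dephosphorylated and activates exons when phosphorylated, had 22.8, 22.8 and 23.8 FPKM in NC 1, NC 2 and NC 3 and 19.3, 20.6 and 21.1 FPKM in siPSCA 1, siPSCA 2 and siPSCA 3. The groups did not overlap, and the log2 fold change was -0.18 ± 0.053 (SE, adjusted p = 0.0322). Its GC content of 40.3% is the lowest of the tested SR proteins, and the direction turned when the GC and length trend was removed (log2 fold change 0.20, adjusted p = 0.00678). The call was lost, at -0.20 to -0.14, when NC 1, NC 2 or any siPSCA library was left out.

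SRSF1 and SRSF3, the best studied SR proteins beside SRSF2, did not pass the threshold. SRSF1 (ASF/SF2), an activator of exon inclusion that also acts as an oncoprotein, had 33.9, 37.7 and 47.2 FPKM in NC 1, NC 2 and NC 3 and 36.0, 32.5 and 38.0 FPKM in siPSCA 1, siPSCA 2 and siPSCA 3. NC 3 was the highest of all libraries and the groups overlapped. The log2 fold change was -0.14 with a 95% confidence interval of -0.45 to 0.17 (adjusted p = 0.381), without NC 3 it was -0.012, and with the GC and length trend removed it was -0.12 (adjusted p = 0.399). A same-strand gene model, AC015813.2, covers 56.6% of the exonic bases of SRSF1 and is listed at 0 in every library.

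SRSF3 (SRp20), the smallest SR protein and one that also couples splicing to RNA export, had 41.4, 43.1 and 50.4 FPKM in NC 1, NC 2 and NC 3 and 51.0, 47.9 and 50.0 FPKM in siPSCA 1, siPSCA 2 and siPSCA 3. NC 3 lay among the siPSCA libraries, whereas NC 1 and NC 2 lay below all of them. The log2 fold change was 0.14 ± 0.081 (SE, adjusted p = 0.180). It was 0.23 without NC 3 (adjusted p = 0.00564) and 0.44 with the GC and length trend removed (adjusted p = 0.00195).

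The other SR proteins moved by less than 0.15 on the log2 scale. SRSF6 (SRp55) was the most abundant SR protein, with 95.9 ± 2.95 FPKM in NC and 94.0 ± 2.37 FPKM in siPSCA (SD, n = 3 each), and its fold change of -0.028 on the log2 scale had a 95% confidence interval of -0.14 to 0.084. SRSF7 (9G8) had 40.1, 41.3 and 42.6 FPKM in NC 1, NC 2 and NC 3 and 47.1, 44.5 and 45.1 FPKM in siPSCA 1, siPSCA 2 and siPSCA 3, groups that did not overlap, and an adjusted p of 0.0538. For SRSF5 (SRp40) the levels were 52.3, 52.3 and 49.7 FPKM in NC 1, NC 2 and NC 3 and 47.8, 46.7 and 48.2 FPKM in siPSCA 1, siPSCA 2 and siPSCA 3, again with no overlap and with an adjusted p of 0.0829. Neither passed in the fit to all 6 libraries as deposited, and both did without NC 3, SRSF7 with a log2 fold change of 0.16 (adjusted p = 0.0166) and SRSF5 with -0.13 (adjusted p = 0.0141). SRSF4 (SRp75) was at -0.10 on the log2 scale (adjusted p = 0.165). TRA2A and TRA2B are activators that bind purine-rich enhancers. TRA2A had 33.9, 36.8 and 40.0 FPKM in NC 1, NC 2 and NC 3 and 35.5, 33.8 and 35.3 FPKM in siPSCA 1, siPSCA 2 and siPSCA 3, and TRA2B had 17.4, 17.9 and 20.8 FPKM in NC 1, NC 2 and NC 3 and 17.3, 18.7 and 18.5 FPKM in siPSCA 1, siPSCA 2 and siPSCA 3. NC 3 was the highest library for both, and the log2 fold changes were -0.077 and -0.035 (adjusted p = 0.382 and 0.730). After removal of the trend SRSF7 was at 0.35 and TRA2B at 0.32 on the log2 scale, both past the threshold (adjusted p = 0.00124 and 0.00299).

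The tails of the SR proteins differ widely in the density of arginine-serine codon pairs, a feature that the choice of genes did not use. Counted in the longest complete coding sequence of each gene, neighbouring arginine and serine codons numbered 23.5 per 100 codons in SRSF2, 22.9 in SRSF4, 22.1 in SRSF6, 8.26 in SRSF11 and 4.07 in SRSF9, the lowest of the SR proteins. Among hnRNPs the density ran from 0.241 in HNRNPF to 2.55 in HNRNPA2B1, and among CLK kinases, which carry a stretch of the same kind near their start, from 2.28 in CLK1 to 4.70 in CLK3. The 90-base window with the most such pairs is shown for the SR protein with the dense tail and the highest level, for the SR proteins with the largest rise and the largest fall, and for CLK1. Capitals mark arginine and serine codons that stand next to each other, 5′ to 3′.
SRSF6, coding bases 565 to 654: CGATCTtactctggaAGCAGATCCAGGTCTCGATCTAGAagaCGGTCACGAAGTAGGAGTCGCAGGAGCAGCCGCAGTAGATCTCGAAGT
SRSF9, coding bases 511 to 600: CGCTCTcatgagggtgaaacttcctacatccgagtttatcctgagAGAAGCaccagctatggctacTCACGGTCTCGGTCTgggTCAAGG
SRSF11, coding bases 742 to 831: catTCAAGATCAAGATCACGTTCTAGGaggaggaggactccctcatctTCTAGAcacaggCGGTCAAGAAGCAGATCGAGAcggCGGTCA
CLK1, coding bases 220 to 309: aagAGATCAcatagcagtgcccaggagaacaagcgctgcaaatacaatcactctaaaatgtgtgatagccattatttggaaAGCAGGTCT

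**Figure D3:**
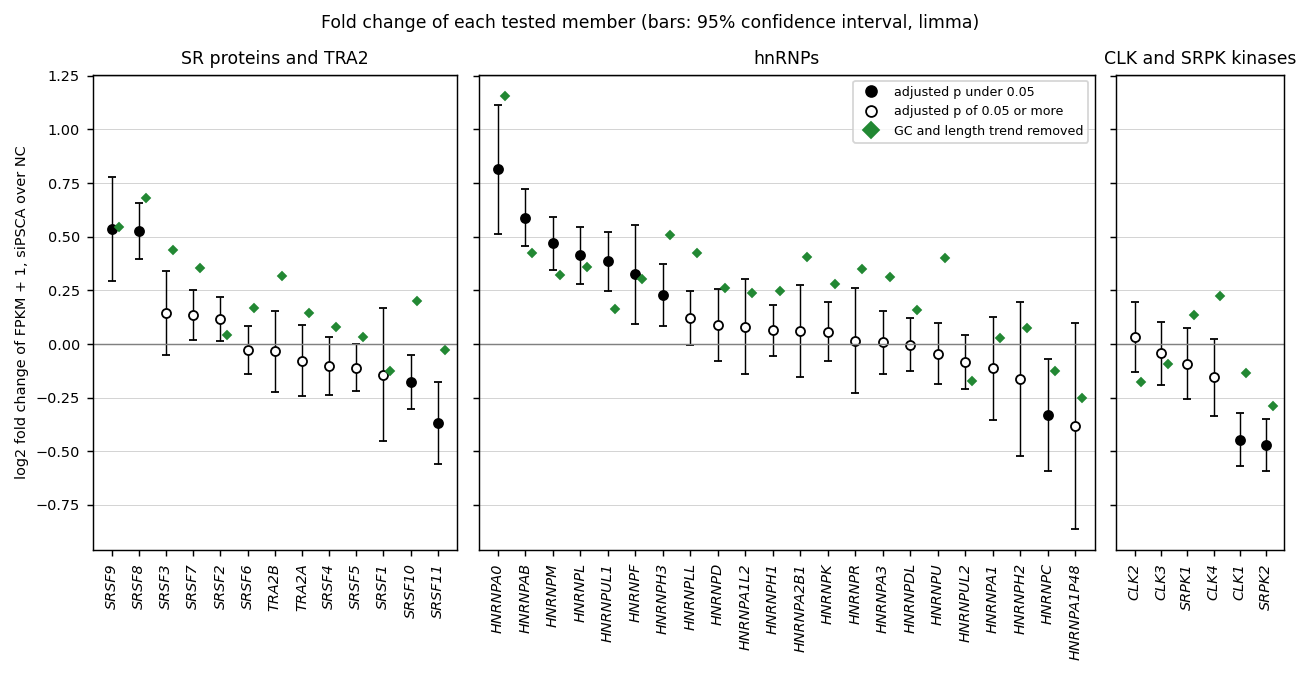
Log2 fold change (siPSCA over NC) of each tested member with its 95% confidence interval in limma, ordered within each class. Filled circles passed an adjusted p of 0.05, open circles did not, and diamonds give the value with the GC and length trend removed, which lies above the circle for most members and moves from -0.37 to -0.028 for SRSF11.

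Of the 22 tested hnRNPs 7 rose and 1 fell, beside 26.6% and 24.2% of all tested genes. HNRNPA0, a member of the A/B group that binds AU-rich elements of cytokine mRNAs, had the largest log2 fold change of the tested members. It lies on chromosome 5 from 137745651 to 137754376 and had 22.0, 22.0 and 16.3 FPKM in NC 1, NC 2 and NC 3 and 38.1, 36.0 and 33.3 FPKM in siPSCA 1, siPSCA 2 and siPSCA 3. Every siPSCA library was above every NC library, and NC 3 was the lowest of all. The level was 1.78 times that of NC, with a log2 fold change of 0.81 ± 0.12 (SE, adjusted p = 0.00366). It was 0.68 without NC 3 and 1.16 with the GC and length trend removed, past the threshold in both. The gene has 1 exon and a GC content of 41.1%, and no 50-base stretch of it occurs in transcripts of another gene.

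HNRNPAB, which binds RNA and single-stranded DNA and takes part in apolipoprotein B mRNA editing complexes, lies on chromosome 5 from 178204507 to 178211163. It had 87.0, 90.6 and 89.6 FPKM in NC 1, NC 2 and NC 3 and 142, 136 and 127 FPKM in siPSCA 1, siPSCA 2 and siPSCA 3. The NC libraries lay close together and far under the siPSCA libraries. The log2 fold change was 0.59 ± 0.055 (SE, adjusted p = 0.000993), and with the GC and length trend removed it was 0.43 (adjusted p = 0.00126). PHYKPL covers 9.14% of its exonic bases from the opposite strand and was at 4.69 FPKM in NC and 4.76 FPKM in siPSCA (adjusted p = 0.848).

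HNRNPM, a regulator of alternative splicing in epithelial and mesenchymal cells, had 58.4, 62.2 and 63.8 FPKM in NC 1, NC 2 and NC 3 and 87.8, 85.1 and 83.4 FPKM in siPSCA 1, siPSCA 2 and siPSCA 3. The groups were separate, with a log2 fold change of 0.47 ± 0.052 (SE, adjusted p = 0.00147). HNRNPL, which binds CA repeats and represses or activates exons by position, had 26.4, 27.1 and 27.4 FPKM in NC 1, NC 2 and NC 3 and 38.6, 35.5 and 34.7 FPKM in siPSCA 1, siPSCA 2 and siPSCA 3. It too showed no overlap, with a log2 fold change of 0.41 ± 0.055 (SE, adjusted p = 0.00241). Both calls stayed with the GC and length trend removed, at 0.32 for HNRNPM (adjusted p = 0.00390) and 0.36 for HNRNPL (adjusted p = 0.00218).

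HNRNPUL1, HNRNPF and HNRNPH3 rose by less. HNRNPUL1, a relative of HNRNPU that takes part in DNA end resection, had 27.7, 29.4 and 26.1 FPKM in NC 1, NC 2 and NC 3 and 36.7, 37.1 and 35.6 FPKM in siPSCA 1, siPSCA 2 and siPSCA 3. Its groups were separate, with a log2 fold change of 0.39 ± 0.057 (SE, adjusted p = 0.00325). HNRNPUL1 has the highest GC content of the tested members, 56.0%, and with the GC and length trend removed it was 0.16 (adjusted p = 0.0158). HNRNPF had 79.1, 77.9 and 97.5 FPKM in NC 1, NC 2 and NC 3 and 110.0, 107 and 101 FPKM in siPSCA 1, siPSCA 2 and siPSCA 3. The gap between the groups was narrow beside the spread within them, and the log2 fold change was 0.32 ± 0.095 (SE, adjusted p = 0.0300). HNRNPH3 had 22.4, 22.5 and 25.2 FPKM in NC 1, NC 2 and NC 3 and 27.5, 28.1 and 26.9 FPKM in siPSCA 1, siPSCA 2 and siPSCA 3. Again no library overlapped, and 0.23 ± 0.061 was the log2 fold change (SE, adjusted p = 0.0218). Once the trend was removed, HNRNPF was at 0.30 and HNRNPH3 at 0.51 on the log2 scale (adjusted p = 0.0278 and 0.000527). HNRNPF and HNRNPH3 bind G-rich sequence together with HNRNPH1 and HNRNPH2. HNRNPH1 was at 78.9 and 82.5 FPKM in NC and siPSCA (adjusted p = 0.318) and HNRNPH2 at 47.2 and 41.3 FPKM (adjusted p = 0.388). Of the 7 that rose, HNRNPA0, HNRNPAB, HNRNPM, HNRNPL and HNRNPUL1 had an adjusted p under 0.05 in all 15 alternative fits, HNRNPH3 in 9 and HNRNPF in 6. By the rule of an unadjusted p with a log2 fold change beyond 0.5, HNRNPA0 and HNRNPAB passed among these 7. HNRNPF and HNRNPH3 lost the call when NC 1, NC 2 or any siPSCA library was left out, with log2 fold changes of 0.27 to 0.36 and 0.20 to 0.24. HNRNPH1 passed the threshold without NC 3 (log2 fold change 0.10) and with the trend removed (0.25, adjusted p = 0.00259).

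Among the hnRNPs tested as members, HNRNPC was the only one below NC at an adjusted p under 0.05 in the values as deposited. It forms the tetramer that measures RNA length and binds uridine tracts, where it keeps U2AF2 away from cryptic exons. On chromosome 14 from 21209136 to 21269494, it had 109, 117 and 146 FPKM in NC 1, NC 2 and NC 3 and 98.2, 98.4 and 96.2 FPKM in siPSCA 1, siPSCA 2 and siPSCA 3. The siPSCA libraries were almost equal, while NC 3 was far above NC 1 and NC 2. The log2 fold change was -0.33 ± 0.11 (SE, adjusted p = 0.0433). Without NC 3 it was -0.21 (adjusted p = 0.00713), and with the trend removed -0.12 (adjusted p = 0.269). The call held in 7 of the 15 alternative fits. It was lost without NC 2 (log2 fold change -0.37), siPSCA 1 (-0.33), siPSCA 2 (-0.33) or siPSCA 3 (-0.32).

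HNRNPA1, HNRNPA2B1, HNRNPK and HNRNPU did not pass the threshold in the values as deposited. HNRNPA1, a repressor of exon inclusion that binds UAGG motifs, had 214, 228 and 275 FPKM in NC 1, NC 2 and NC 3 and 228, 219 and 211 FPKM in siPSCA 1, siPSCA 2 and siPSCA 3. NC 3 was the highest library and the others overlapped. Its 95% confidence interval ran from -0.35 to 0.12 on the log2 scale around -0.11 (adjusted p = 0.365). HNRNPA2B1, which binds UAG motifs and N6-methyladenosine sites, had 119.8, 124 and 150.0 FPKM in NC 1, NC 2 and NC 3 and 137, 138 and 134 FPKM in siPSCA 1, siPSCA 2 and siPSCA 3. NC 3 again exceeded the siPSCA libraries, NC 1 and NC 2 lay under them, and the log2 fold change was 0.061 (adjusted p = 0.594), or 0.16 without NC 3 (adjusted p = 0.00711). Without the GC and length trend HNRNPA2B1 was at 0.41 (adjusted p = 0.00390) and HNRNPA1 at 0.03 (adjusted p = 0.784).

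HNRNPK, which binds C-rich RNA and DNA through KH domains, had 134, 137 and 150.3 FPKM in NC 1, NC 2 and NC 3 and 147, 143 and 147 FPKM in siPSCA 1, siPSCA 2 and siPSCA 3. The pattern was that of HNRNPA2B1, with a log2 fold change of 0.058 (adjusted p = 0.426) that became 0.11 without NC 3 (adjusted p = 0.0274) and 0.28 with the trend removed (adjusted p = 0.00242). HNRNPU, the scaffold attachment factor that also regulates U2 snRNP maturation, had 38.5, 41.0 and 44.0 FPKM in NC 1, NC 2 and NC 3 and 39.8, 39.7 and 39.9 FPKM in siPSCA 1, siPSCA 2 and siPSCA 3. The siPSCA libraries were almost equal and lay within the range of NC, with a log2 fold change of -0.045 (adjusted p = 0.543). HNRNPU has a GC content of 39.6%, and with the trend removed its log2 fold change was 0.40 (adjusted p = 0.00154). Exons of COX20 on the opposite strand cover 15.6% of HNRNPU, and COX20 was at -0.081 on the log2 scale (adjusted p = 0.557).

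HNRNPA3, HNRNPD, HNRNPDL, HNRNPR, HNRNPLL and HNRNPUL2 did not pass in the values as deposited, and each passed with the GC and length trend removed. HNRNPA3, a relative of HNRNPA1 that binds telomeric repeats, had 83.1, 87.8 and 95.5 FPKM in NC 1, NC 2 and NC 3 and 89.6, 88.5 and 89.2 FPKM in siPSCA 1, siPSCA 2 and siPSCA 3. Those levels overlapped around a log2 fold change of 0.0078 (95% confidence interval -0.14 to 0.15), and with the GC and length trend removed it was 0.31 (adjusted p = 0.00181). HNRNPD (AUF1), which binds AU-rich elements and speeds decay, had 42.9, 43.7 and 48.6 FPKM in NC 1, NC 2 and NC 3 and 49.9, 49.2 and 45.0 FPKM in siPSCA 1, siPSCA 2 and siPSCA 3. NC 3 lay among the siPSCA libraries there, and the log2 fold change was 0.09 (adjusted p = 0.314), or 0.26 with the trend removed (adjusted p = 0.0145). For its relative HNRNPDL the means were 54.4 ± 2.58 FPKM in NC and 54.3 ± 1.03 FPKM in siPSCA (SD, n = 3 each), and the fold change was -0.0027 on the log2 scale (95% confidence interval -0.13 to 0.12). With the trend removed HNRNPDL was at 0.16 (adjusted p = 0.0113).

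HNRNPR, close in sequence to SYNCRIP, had 26.6, 28.8 and 35.1 FPKM in NC 1, NC 2 and NC 3 and 30.1, 30.9 and 30.0 FPKM in siPSCA 1, siPSCA 2 and siPSCA 3. The groups overlapped (log2 fold change 0.015, adjusted p = 0.910), and with the GC and length trend removed it was 0.35 (adjusted p = 0.0101). HNRNPLL, known for the switch of CD45 isoforms in T cells, was at 11.3 ± 0.489 FPKM in NC and 12.4 ± 0.267 FPKM in siPSCA (SD, n = 3 each), with groups that did not overlap and an adjusted p of 0.0946. HNRNPUL2, of which 44.2% of the exonic bases are shared with a readthrough, was at 9.35 ± 0.178 FPKM in NC and 8.78 ± 0.366 FPKM in siPSCA (SD, n = 3 each), at -0.083 on the log2 scale (adjusted p = 0.223). After removal of the trend HNRNPLL was at 0.43 (adjusted p = 0.00102) and HNRNPUL2 at -0.17 (adjusted p = 0.0190). In that setting 17 of the 22 tested hnRNPs were higher and 1 was lower, beside 21.6% and 18.2% of all tested genes.

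HNRNPA1L2 and HNRNPA1P48 are copies of HNRNPA1 that the annotation lists as protein-coding. HNRNPA1P48 had 7.83, 9.76 and 14.4 FPKM in NC 1, NC 2 and NC 3 and 7.28, 7.52 and 8.39 FPKM in siPSCA 1, siPSCA 2 and siPSCA 3. NC 3 was the highest library for it, as for HNRNPA1, and the log2 fold change was -0.38 ± 0.20 (SE, adjusted p = 0.151), or -0.56 and past the threshold without NC 1. HNRNPA1L2 was at 4.04 ± 0.537 FPKM in NC and 4.31 ± 0.250 FPKM in siPSCA (SD, n = 3 each). Of the 50-base stretches of these genes, 48.6% for HNRNPA1P48 and 47.6% for HNRNPA1L2 occur in HNRNPA1 transcripts, so both levels are uncertain. The 75 rows named HNRNPA1P with a number, HNRNPA1P48 among them, together held 2.51% to 3.32% as many reads as HNRNPA1 in a library. Of these rows 30 had reads. In NC 1, NC 2 and NC 3, HNRNPA1P48 alone had 253, 327 and 478 of their 494, 555 and 800 reads. It had 237, 257 and 294 of 494, 497 and 532 reads in siPSCA 1, siPSCA 2 and siPSCA 3. A stretch of the coding sequence is shown to make the likeness visible, with capitals where a copy differs from HNRNPA1, coding bases 136 to 225 for HNRNPA1 and HNRNPA1L2 and 1 to 90 for HNRNPA1P48. Coding identity to HNRNPA1 was 98.4% for HNRNPA1L2 and 99.3% for HNRNPA1P48.
HNRNPA1: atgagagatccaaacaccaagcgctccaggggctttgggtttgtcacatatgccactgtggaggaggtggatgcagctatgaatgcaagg
HNRNPA1L2: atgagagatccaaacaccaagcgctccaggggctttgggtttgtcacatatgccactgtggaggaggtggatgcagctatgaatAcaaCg
HNRNPA1P48: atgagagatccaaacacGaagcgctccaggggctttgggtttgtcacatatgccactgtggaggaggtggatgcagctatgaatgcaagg

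Of the 6 tested kinases SRPK2 and CLK1 fell and the others did not pass the threshold in the values as deposited. Of all tested genes 24.2% were lower. SRPK2, which phosphorylates SR proteins and spliceosome components such as the helicase DDX23, lies on chromosome 7 from 105110704 to 105399308 and had 11.1, 11.0 and 11.7 FPKM in NC 1, NC 2 and NC 3 and 7.89, 7.68 and 8.02 FPKM in siPSCA 1, siPSCA 2 and siPSCA 3. The groups were far apart compared with the spread inside each. The mean went from 11.3 ± 0.366 to 7.86 ± 0.175 FPKM (SD, n = 3 each), with a log2 fold change of -0.47 ± 0.05 (SE, adjusted p = 0.00137). The adjusted p stayed under 0.05 in all 15 alternative fits, the log2 fold change did not reach the size of 0.5, and with the trend removed it was -0.29 (adjusted p = 0.00196). SRPK1, its paralogue and the more abundant kinase, had 21.1, 20.0 and 23.4 FPKM in NC 1, NC 2 and NC 3 and 19.6, 19.9 and 20.8 FPKM in siPSCA 1, siPSCA 2 and siPSCA 3. Here the groups overlapped, and the log2 fold change was -0.092 (95% confidence interval -0.26 to 0.072, adjusted p = 0.295).

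CLK1, which releases SR proteins from nuclear speckles and regulates its own splicing, lies on chromosome 2 from 200853009 to 200864744 and had 16.2, 17.0 and 17.6 FPKM in NC 1, NC 2 and NC 3 and 12.3, 11.8 and 12.4 FPKM in siPSCA 1, siPSCA 2 and siPSCA 3. The highest siPSCA library was well under the lowest NC library. The log2 fold change was -0.45 ± 0.051 (SE, adjusted p = 0.00161). CLK1 has a GC content of 38.3%, and its log2 fold change was -0.14 with the trend removed (adjusted p = 0.0268). CLK4, the closest relative of CLK1, had 2.49, 2.38 and 2.59 FPKM in NC 1, NC 2 and NC 3 and 1.96, 2.27 and 2.17 FPKM in siPSCA 1, siPSCA 2 and siPSCA 3. These groups did not overlap either, but the log2 fold change of -0.16 did not pass (adjusted p = 0.124). Once the trend was removed, the direction turned and CLK4 passed (0.22, adjusted p = 0.0371).

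CLK2 had 17.2, 17.8 and 15.5 FPKM in NC 1, NC 2 and NC 3 and 17.2, 16.5 and 18.0 FPKM in siPSCA 1, siPSCA 2 and siPSCA 3, and CLK3 had 3.51, 3.91 and 3.60 FPKM in NC 1, NC 2 and NC 3 and 3.58, 3.45 and 3.56 FPKM in siPSCA 1, siPSCA 2 and siPSCA 3. Both pairs of groups overlapped, with log2 fold changes of 0.034 and -0.044 (adjusted p = 0.697 and 0.573) and 95% confidence intervals of -0.13 to 0.20 and -0.19 to 0.10. Without the GC and length trend CLK2 was lower (-0.18, adjusted p = 0.0354) and CLK3 was at -0.092 (adjusted p = 0.245). SRPK3, known from muscle, lay under the level minimum with 0.185 ± 0.109 FPKM in NC and 0.675 ± 0.0798 FPKM in siPSCA. It had 24, 14 and 7 reads in NC and 61, 56 and 52 in siPSCA, and a log2 fold change of 0.50 in the model over all 34391 genes with a read (adjusted p = 0.0228). PLXNB3 covers 30.2% of the exonic bases of SRPK3 on the same strand and was at 1.07 ± 0.356 FPKM in NC and 1.70 ± 0.143 FPKM in siPSCA (adjusted p = 0.0671). Of the other members without a test, SRSF12 had at most 4 reads and the readthrough HNRNPUL2-BSCL2 at most 2 reads in a library, and HNRNPCL1, HNRNPCL2, HNRNPCL3 and HNRNPCL4 had none.

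**Figure D4:**
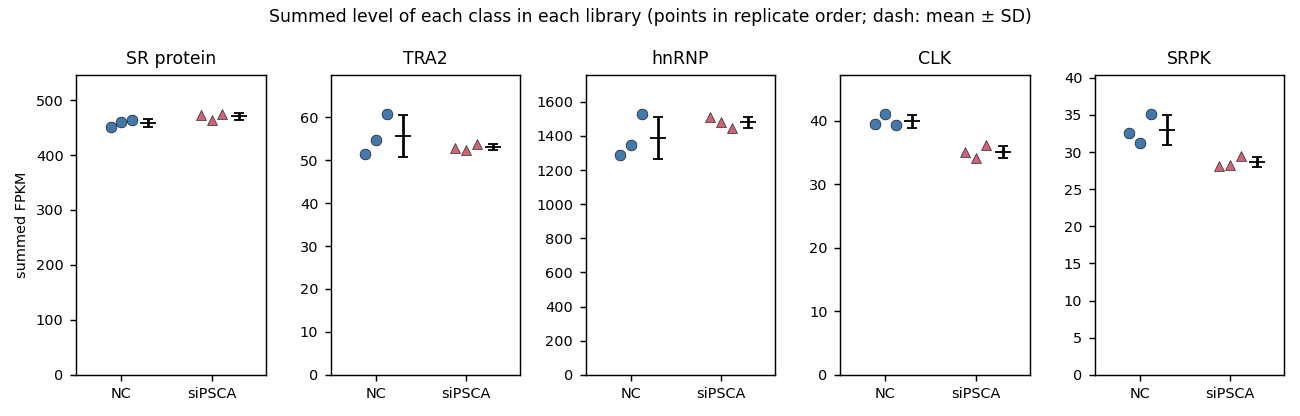
Summed FPKM of each class in each library, in replicate order, circles for NC and triangles for siPSCA, with the mean ± SD beside them and the axis from 0. The CLK and SRPK sums of siPSCA lie under every NC library, and NC 3 is the highest library for the TRA2, hnRNP and SRPK sums.

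Summed over each class, the SR protein and hnRNP levels overlapped between the groups and the CLK and SRPK levels did not. The hnRNP sum was 1290.0, 1345 and 1530.0 FPKM in NC and 1512, 1480.0 and 1446 FPKM in siPSCA, so that NC 3 exceeded all siPSCA libraries while NC 1 and NC 2 lay under them. The SR protein sum was 451, 461 and 464 FPKM in NC and 472, 463 and 475 FPKM in siPSCA, again with overlap. The CLK sum was lower in siPSCA by 12.2%, from 39.9 ± 1.02 to 35.1 ± 1.01 FPKM, and the SRPK sum by 13.2%, from 33.0 ± 2.02 to 28.6 ± 0.692 FPKM (SD, n = 3 each). Within these sums CLK1 went from 16.9 to 12.2, CLK2 from 16.8 to 17.2, SRPK1 from 21.5 to 20.1 and SRPK2 from 11.3 to 7.86 FPKM. The exact permutation test gave p = 0.1 for both sums, the smallest it can reach. The GC and length trend was not removed from the sums. All members together made up 0.662% to 0.797% of the summed FPKM of a library.

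Some members neighbour each other on a chromosome. HNRNPD and HNRNPDL lie 48.1 kb apart on chromosome 4, on the same strand, with log2 fold changes of 0.09 and -0.0027. HNRNPLL and SRSF7 lie 140.0 kb apart on chromosome 2, with 0.12 and 0.14 on the log2 scale. HNRNPAB and CLK4 lie 391.5 kb apart on opposite strands of chromosome 5 and went in different directions, with 0.59 and -0.16, of which the first passed the threshold.

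Upstream sequence from RefSeq on GRCh38.p14 was found for 43 of the 48 members, and 37 of the tested members had 56 windows of 250 bases before a start site. Motifs were sought by their letters on both strands. They were the GC box written GGGCGG, the element written CCAAT, the start site element written TATAAA, the core of ETS factor motifs written CCGGAAG, and the core of hypoxia response elements written ACGTG. None of these lies inside another. The GC box was found in 60.7% of the member windows, 65.5% of the 12904 windows of tested protein-coding genes and 42.6% of all 35116 windows. CCAAT was found in 39.3%, 32.9% and 32.0% of these, TATAAA in 10.7%, 5.58% and 10.7%, CCGGAAG in 8.93%, 14.7% and 8.52%, and ACGTG in 35.7%, 22.7% and 18.5%. Windows of one gene can overlap, and a match is no binding site by itself.

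The upstream sequence is shown for the hnRNPs with the 2 largest rises, for SRSF9 and for CLK1, each trimmed to the bases outside the annotated gene, 5′ to 3′ on the strand of the gene. Capitals mark the motifs searched. The TATAAA counted above for HNRNPAB lies outside its printed stretch. HNRNPA0 (chr5:137754377-137754613, minus strand) held 1 GC box and 1 CCAAT, HNRNPAB (chr5:178204283-178204506, plus strand) 3 GC boxes and 2 CCAAT, CLK1 (chr2:200864745-200864908, minus strand) 1 GC box, and SRSF9 (chr12:120469794-120469998, minus strand) none of the 5 motifs.
HNRNPA0: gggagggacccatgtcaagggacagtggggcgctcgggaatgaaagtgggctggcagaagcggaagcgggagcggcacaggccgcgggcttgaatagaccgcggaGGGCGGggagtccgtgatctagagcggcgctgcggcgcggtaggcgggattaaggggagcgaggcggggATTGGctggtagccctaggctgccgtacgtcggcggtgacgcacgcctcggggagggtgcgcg
HNRNPAB: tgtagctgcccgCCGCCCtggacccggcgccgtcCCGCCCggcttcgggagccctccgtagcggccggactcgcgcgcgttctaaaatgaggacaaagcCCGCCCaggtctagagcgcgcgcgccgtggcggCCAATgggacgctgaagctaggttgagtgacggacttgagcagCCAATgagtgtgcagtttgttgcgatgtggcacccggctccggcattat
SRSF9: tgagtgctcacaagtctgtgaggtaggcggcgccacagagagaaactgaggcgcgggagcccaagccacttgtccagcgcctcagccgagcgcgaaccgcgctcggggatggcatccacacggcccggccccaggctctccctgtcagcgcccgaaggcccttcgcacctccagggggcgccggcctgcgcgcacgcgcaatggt
CLK1: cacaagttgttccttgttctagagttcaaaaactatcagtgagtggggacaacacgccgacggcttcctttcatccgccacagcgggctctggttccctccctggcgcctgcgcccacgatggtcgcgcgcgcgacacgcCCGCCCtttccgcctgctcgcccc

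Other splicing genes were counted in lists by complex or role. Of all tested genes 26.6% were higher and 24.2% lower as deposited. With the GC and length trend removed these shares were 21.6% and 18.2%. Among hnRNPs that carry other symbols, 6 of 13 tested genes (46%) rose and 4 (31%) fell. PCBP4 and PCBP1, poly(C) binding proteins, rose from 7.84 ± 1.98 to 15.5 ± 1.82 FPKM (log2 fold change 0.93, adjusted p = 0.00821) and from 41.1 ± 2.37 to 68.7 ± 6.58 FPKM (log2 fold change 0.72, adjusted p = 0.00165), both n = 3 per group with SD. PTBP3, a polypyrimidine tract repressor, fell from 28.3 ± 1.57 to 19.3 ± 0.623 FPKM (log2 fold change -0.52, adjusted p = 0.00146), and SYNCRIP (hnRNP Q) fell from 57.3 ± 7.02 to 43.7 ± 1.66 FPKM (log2 fold change -0.38, adjusted p = 0.0154). With the trend removed 7 genes of the list were higher and 1 lower. PCBP4, PCBP1 and PTBP3 kept their calls there (0.39, 0.53 and -0.14), while SYNCRIP was at 0.0015.

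Of the 27 SR-like and SR-related proteins, 13 (48%) fell and 6 (22%) rose, against 24.2% and 26.6% of all tested genes. The median log2 fold change of the list was -0.20. PPIG, a cyclophilin with an arginine-serine tail, fell from 16.7 ± 0.954 to 8.97 ± 1.36 FPKM (log2 fold change -0.83, adjusted p = 0.00212), and LUC7L3, a U1 snRNP associated protein, fell from 57.6 ± 4.73 to 33.0 ± 1.90 FPKM (log2 fold change -0.78, adjusted p = 0.00114). SCAF1 and CLASRP rose, with log2 fold changes of 1.06 and 0.52 (adjusted p = 0.00654 and 0.00964). After removal of the trend 5 genes of the list were higher and 9 lower, PPIG at -0.47, LUC7L3 at -0.47 and SCAF1 at 0.27, and CLASRP lost its call (0.035, adjusted p = 0.661).

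Genes of the core snRNPs had a median GC content of 52.0% in the U1 and Sm list, 49.7% in the U2 and branch site list and 52.0% in the tri-snRNP list. Of all tested genes 26.6% rose and 24.2% fell as deposited, and 21.6% and 18.2% did with the trend removed. In the U1 and Sm list 6 of 10 tested genes rose and 0 fell, with SNRPB, a Sm ring protein, from 60.4 ± 18.0 to 120.1 ± 10.3 FPKM (log2 fold change 1.02, adjusted p = 0.0119) and SNRNP70, the U1-70K protein that SR proteins contact, from 37.6 ± 7.52 to 61.7 ± 4.32 FPKM (log2 fold change 0.72, adjusted p = 0.0102). In the U2 and branch site list 9 of 17 rose and 3 fell, with U2AF2 and SF3A2 higher (log2 fold change 0.91 and 0.76) and SF3B1 and DDX46 lower (-0.43 and -0.37). In the tri-snRNP list 3 of 14 rose and 0 fell, led by DDX23 (0.39) and PRPF31 (0.36). In the Prp19 complex and catalytic step list 4 of 18 rose and 9 fell, with PRPF19 (0.56) and DHX16 (0.33) higher and SLU7 (-0.44) and SYF2 (-0.39) lower. Once the trend was removed, 5 genes of the U1 and Sm list were higher and 0 lower, and in the U2 list 7 and 0, in the tri-snRNP list 2 and 2, and in the Prp19 list 4 and 4. Of the named genes SNRNP70 (0.16), SF3A2 (0.13), SF3B1 (-0.053), DDX46 (-0.001), PRPF31 (-0.018) and DHX16 (0.076) lost their calls there.

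Among the other splicing regulators 3 of 17 tested genes (18%) rose and 8 (47%) fell, against 26.6% and 24.2% of all tested genes. MBNL2 and RBFOX2, tissue regulators of alternative exons, fell from 21.2 ± 1.48 to 11.2 ± 0.873 FPKM (log2 fold change -0.86, adjusted p = 0.000892) and from 29.7 ± 1.98 to 18.1 ± 0.565 FPKM (log2 fold change -0.68, adjusted p = 0.000945), and both stayed below with the trend removed (-0.56 and -0.56). ESRP2, an epithelial splicing regulator, rose from 7.44 ± 0.884 to 12.8 ± 0.933 FPKM (log2 fold change 0.72, adjusted p = 0.00239), and RBM10 rose by 0.36 on the log2 scale (adjusted p = 0.00792). Without the GC and length trend ESRP2 was at 0.38 and kept its call, and RBM10 turned direction and lost it (-0.11, adjusted p = 0.389), with 3 genes of the list higher and 4 lower.

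Of the genes that carry SR proteins and hnRNPs into the nucleus or modify them, 7 of 14 (50%) rose and 5 (36%) fell. Of all tested genes 26.6% rose and 24.2% fell. TNPO2 and PPP1CA rose (0.56 and 0.54 on the log2 scale, adjusted p = 0.00578 and 0.00140). PPP1CB and PRPF4B, a phosphatase subunit and the kinase of PRPF proteins, fell (-0.61 and -0.54, adjusted p = 0.000771 and 0.00140). TNPO3, the importin of SR proteins, belongs to the same list and was at 0.067 (adjusted p = 0.291). With the trend removed 5 genes of the list were higher and 2 lower, and PPP1CA lost its call (0.069, adjusted p = 0.530), with TNPO2 at 0.27, PPP1CB at -0.28 and PRPF4B at -0.17. Of 15 nonsense-mediated decay factors, which remove unproductive SR protein transcripts, 4 (26.7%) rose and 2 (13.3%) fell, against 26.6% and 24.2% of all tested genes. UPF1 (0.59) and MAGOH (0.47) were higher and UPF2 (-0.63) and SMG1 (-0.40) lower. After removal of the trend 5 were higher and 1 lower, and SMG1 lost its call (-0.018, adjusted p = 0.786). Of 8 tested sort and epithelial markers 2 (25%) rose (CDX2 0.70, KRT8 0.22) and 3 (37.5%) fell, namely CDH1 (-0.60), PROM1 (-0.59) and CD44. The listed stem cell markers LGR5 and ASCL2 lay under the level minimum. They were at 0.0076 and 0 FPKM in NC and at 0.051 and 0.010 FPKM in siPSCA. Once the trend was removed, 1 marker was higher and 4 were lower. KRT8 lost its call there (-0.07), and KRT18 was lower (-0.48, adjusted p = 0.0239). CD44 went from 82.6 ± 4.36 to 60.7 ± 1.51 FPKM (adjusted p = 0.00193), and EPCAM did not pass the threshold (log2 fold change -0.16, adjusted p = 0.199). The summed level of the listed markers was 511 to 574.5 FPKM in NC and 504 to 519 FPKM in siPSCA. The part of these markers in the values above was not tested.

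**Figure D5:**
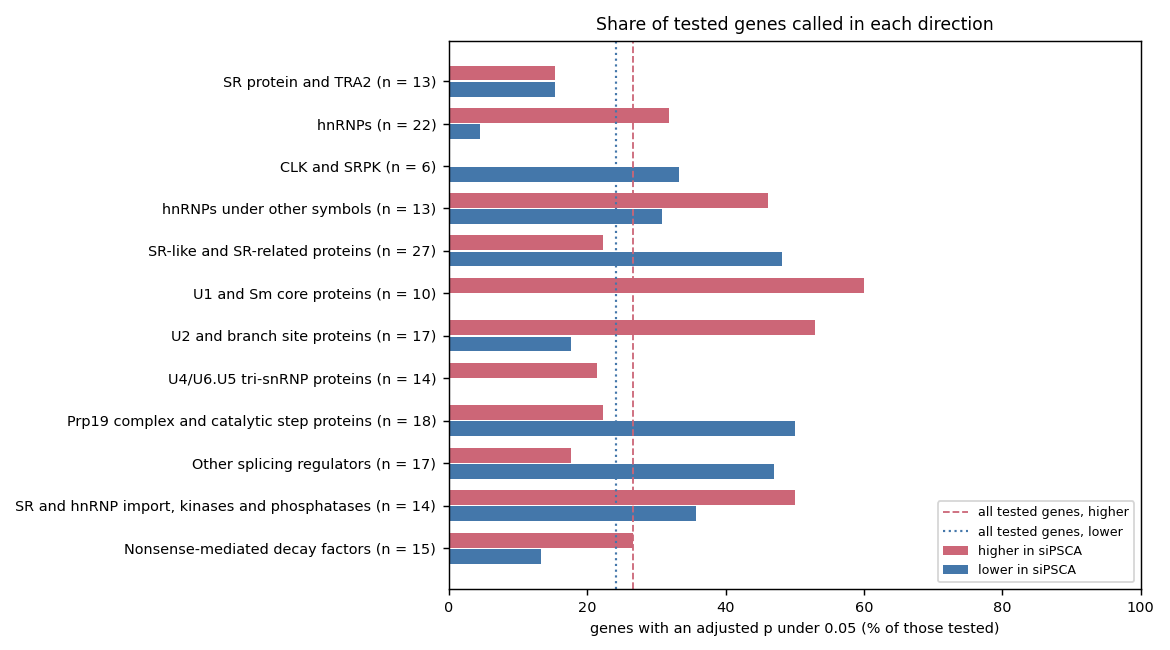
Share of the tested genes of each class or list, in percent, that were higher (upper bar) or lower (lower bar) in siPSCA at an adjusted p under 0.05, with the number tested in brackets. The dashed and dotted lines give all tested genes, 26.6% higher and 24.2% lower, and no gene of the U1 and Sm and tri-snRNP lists was lower in the values as deposited.

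The table holds 1 value per gene, so transcripts that skip a decay exon or retain an intron were counted together with the productive ones. Splicing itself was not analysed here.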

How the data were processed

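RNA from 3 NC and 3 siPSCA libraries was sequenced as paired ends after preparation with the NEBNext Ultra kit. The deposited table held 1 FPKM value per gene and library, which the authors calculated on GRCh38. The start and end positions of the genes matched GENCODE release 29 for all 58735 rows. The aligner, the counter and the strand setting are not given in the sources used here. For values under 1000 reads, 100% were whole reads within 0.01 once multiplied by gene length and library total, so reads could be recovered. Library totals were 16803235 to 18218661 reads.

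Genes with a mean of at least 1 FPKM were tested on log2(FPKM + 1) with limma 3.58.1 in R 4.3.3 (trended variance, group as the only term, two-sided, Benjamini-Hochberg adjustment over 13796 genes). Fold changes on this scale understate those of low genes. The 15 alternative fits were a pseudocount of 0.1, no minimum or 5 FPKM, TPM, median-of-ratios scaling, limma-voom on recovered reads, removal from each library of a spline trend on GC content and gene length, the replicate block alone and with that trend removed, and each library left out. Another rule, an unadjusted p under 0.05 with a log2 fold change over 0.5, was applied apart from these. GC content was taken from the GENCODE transcripts. An exact permutation test of 3 against 3 cannot fall below p = 0.1. The fit was tested on simulated data that held no GC trend and no deviating library, so that test does not cover these features of the data.

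The members and lists were chosen with earlier results of these data known. Members were described in full if past the threshold without overlap and among the 4 largest rises or falls of their class, if they were kinases, or if they were SRSF1, SRSF2, SRSF3, HNRNPA1, HNRNPA2B1, HNRNPC, HNRNPK or HNRNPU. In each list the 2 largest rises and 2 largest falls past the threshold were named. CD44, EPCAM, COL1A1, TNPO3, overlapping genes and other members were named beyond this rule, after their values were seen. Python 3.11.15, pandas 2.3.3, numpy 2.4.6, scipy 1.17.1, Biopython 1.88 and matplotlib 3.10.9 were used.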

Additional observations from a re-analysis of the deposited data

How the results depend on the processing

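With the GC and length trend removed, the members past the threshold went from 14 to 29 (25 higher against 9). All tested genes past it went from 7001 to 5485. The median log2 fold change was 0.22 over the members, 0.17 over SR proteins and 0.29 over hnRNPs. Leaving out NC 3 as well, an alternative chosen after seeing the data, gave 32 of the 41 members past the threshold, 27 of them higher. In that fit 5855 of 13792 tested genes passed. The medians there were 0.219 over the members, 0.11 over SR proteins and 0.32 over hnRNPs. By the rule of an unadjusted p under 0.05 beside a fold change over 0.5 (log2), 4 members passed, 4 higher and 0 lower, as did 3434 of all genes in place of 7001 and 36 list genes in place of 92. Without an FPKM minimum 3 members were lower in place of 5. In TPM the medians were -0.039, -0.076 and 0.015. With median-of-ratios scaling those of members and hnRNPs were -0.0097 and 0.044, and with limma-voom, which called 7380 genes, 0.034 and 0.089. Over all tested genes the median was -0.034 in TPM and -0.0058 with median-of-ratios scaling. The cause was not tested.

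When 1 library was left out, the members higher numbered 7 to 15 (15 without NC 3), those lower 3 to 6 (3 without NC 2 or any siPSCA library), all genes past the threshold 4627 to 7425 (4627 without siPSCA 1) and list genes 71 to 106. The medians ran from -0.017 (without NC 1) to 0.040 (without NC 3) over the members and from 0.028 to 0.13 over hnRNPs.

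The direction of 13 members turned with the GC and length trend removed, whose log2 fold changes were 0.030 for HNRNPA1, 0.17 for SRSF6, 0.16 for HNRNPDL, 0.031 for SRSF5, 0.076 for HNRNPH2, 0.40 for HNRNPU, 0.14 for TRA2A, 0.20 for SRSF10, 0.13 for SRPK1, 0.32 for TRA2B, -0.18 for CLK2, 0.077 for SRSF4 and 0.22 for CLK4. With NC 3 also left out they were 0.11 for HNRNPA1, 0.11 for SRSF6, 0.17 for HNRNPDL, 0.219 for HNRNPH2, 0.41 for HNRNPU, 0.17 for TRA2A, 0.18 for SRSF10, 0.16 for SRPK1, 0.35 for TRA2B, -0.21 for CLK2, 0.087 for SRSF4 and 0.21 for CLK4. Other turns were small, at -0.039 for HNRNPA3, -0.031 for HNRNPR and -0.011 for CLK2 in TPM, -0.0097 for HNRNPA3 and -0.0018 for HNRNPR with median-of-ratios scaling, and 0.023 for HNRNPDL with limma-voom. Leaving out 1 library gave a range that crossed 0 for HNRNPA3 (-0.039 without NC 1 to 0.061 without NC 3), HNRNPR (-0.068 without NC 1 to 0.13 without NC 3, and -0.013 without NC 2), HNRNPDL (-0.026 without NC 2 to 0.035 without NC 3, and 0.011 without siPSCA 2), HNRNPH2 (-0.28 without NC 1 to 0.011 without NC 3), HNRNPU (-0.090 without NC 1 to 0.0025 without NC 3), TRA2B (-0.080 without NC 1 to 0.040 without NC 3) and CLK2 (-0.021 without NC 3 to 0.074 without NC 2).

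The labels give no pairing of the replicates. Deviations of libraries with the same number correlated at 0.096, 0.013 and 0.134, and the libraries numbered 1 and 3, but not those numbered 2, correlated best with their own number. With the replicate block 12 members passed (8 higher, 4 lower), with 6725 of all genes and 88 list genes. With the replicate block and the GC and length trend removed, 24 members passed (22 higher, 2 lower), as did 4598 genes and 54 list genes, and the fold changes and medians were those given above for the removed trend. At this depth members with under 5 reads in every library, such as SRSF12, had no usable value.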
